A study of Oncorhynchus mykiss with 6 samples.

Results

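The miRNAs described here are the abundant predicted miRNAs of rainbow trout (Oncorhynchus mykiss) dorsal skin whose listed sequence stands in a single entry of the deposited miRNA table. They were chosen by measured level: predicted entries with a sequence found in 1 entry only whose level, averaged over the 6 libraries of both groups, reached 10 TPM. TPM is the authors' count scaled by library depth, and a count of 0 was taken as 0 TPM. The rule kept 24 of the 1939 entries of the table and 24 of the 681 predicted entries with a single-entry sequence. Small RNA was sequenced from fish 45 days old, from dorsal skin, in 3 libraries of a yellow mutant, whose skin is yellow (YR), and 3 libraries of the wild type, whose skin is black (WR). The mutated gene is not named in the labels. No label states that replicate libraries were made from different animals, so every p-value here rests on the spread between libraries, and that spread could be purely technical. The series asks which miRNAs and mRNAs differ between skin of the 2 colours.

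A miRNA is cut from a hairpin of its transcript, in animals by Drosha and then by Dicer. The duplex that results has an arm from the 5′ side of the hairpin (5p) and an arm from the 3′ side (3p), and 1 of them is usually kept in an Argonaute protein. The bases near the 5′ end, the seed, pair with target mRNAs, so miRNAs with the same seed form a family, while a shift of the 5′ end gives another seed. A predicted miRNA has no database name: it is called from reads and from the fold of the genome around them, and its targets are known only by inference. The sources used here do not say how the hairpins were called, so each predicted miRNA is given by the number and arm of the authors' table, such as m0037-3p, and by its sequence, and no function is assigned to it.

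The sequences that carry the comparison of the groups are those of the 4 entries that passed the test of YR against WR. That of m0012-3p is added, which passed it under some settings, as did m0027-5p, m0032-5p, m0033-3p and m0046-3p. The sequences of the 4 entries and of m0012-3p are printed 5′ to 3′ as in the deposited table, which writes T for U. The seed (bases 2 to 8) is in capitals.
m0037-3p: tCTGGATCgatctgtacgaca
m0050-5p: tTGGCAATaactccaatgtgat
m0056-3p: aTCTCAATcagtgatggaacatct
m0013-3p: tGAGAACTagcgcaccattggt
m0012-3p: cCAGTATGgcttgtgctgctaac

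The single-entry rule compares whole sequences only, and 9 of the 24 lay within 3 edits (substitutions, insertions or deletions) of another entry. The sets below are shown because their members are near copies of each other or of a miRNA of known name, and miR-146-x because m0013-3p shares its seed, again with bases 2 to 8 in capitals. The endings x and y of the known names are the authors' own.
m0004-3p: aTTCCCAGtgggatgaagctca
miR-205-y: aTTCCCAGtgggatgaagctc
m0033-3p: cACCGGGAatttcgtgtcagcaa
m0046-3p: cCCGGGAAtttcgtgtcagcaa
miR-731-y: cACCGGGAatttcgtgtcagca
m0032-5p: gCACCCTAttccttatgtagact
m0044-5p: gCACCCTAttccttatgtaga
miR-457-y: cCAGTATGgcttgtgctgctcca
miR-146-x: tGAGAACTgaattccatagatgg

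m0004-3p, the most abundant of the 24, holds the whole of miR-205-y and runs 1 base further at the 3′ end. m0033-3p holds the whole of miR-731-y, a miRNA of fish, and likewise runs 1 base further. m0046-3p shares a run of 21 bases with m0033-3p, but its seed starts at another base, so that it shares no seed with m0033-3p or with any other entry of the table. m0044-5p lies wholly within m0032-5p and has the same seed. m0012-3p shares its first 20 bases with miR-457-y and with the predicted m0198-3p. m0013-3p shares the seed of miR-146-x, whose family is known for its part in innate immunity, and lies more than 3 edits from it and from every other entry.

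In all, 5 of the 24 had the seed of an entry of known name: m0004-3p (miR-205-y), m0012-3p (miR-457-y), m0013-3p (miR-146-x), m0033-3p (miR-731-y) and m0045-3p (miR-3120-y). For 3 of these the known entry itself had a mean of at least 10 TPM. The seeds of another 5 were found in other predicted entries and in none of known name, and the seeds of 14 were found in no other entry. With bases 2 to 7 in place of 2 to 8, the number that shared a seed with a known name was 9. The 24 had 23 distinct seeds, since m0032-5p and m0044-5p share theirs. m0040-5p lay within 3 edits of a predicted sequence that the table lists 5 times, m0007-5p to m0011-5p, and shared its seed. m0007-5p had a mean of 104 TPM in YR and 97.4 TPM in WR, while m0040-5p had 18.1 TPM in YR and 16.9 TPM in WR.

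The lengths of the 24 ran from 20 to 24 bases with a median of 22, and 13 of them (54.2%) were 22 bases long. A length of 22 was also the median of the 657 scarce predicted single-entry sequences, where it made up 58.6%, and of the 248 distinct sequences of known name with a mean of at least 10 TPM, where it made up 50%. The shortest was m0014-3p at 20 bases and the longest m0056-3p at 24 bases. Their GC content ran from 27.3% in m0024-3p to 70.0% in m0014-3p with a median of 47.6%, against medians of 45.5% in the scarce sequences and 47.6% in those of known name. The table assigned 15 of the 24 (62.5%) to the 3p arm and 9 to the 5p arm, against 48.9% to the 3p arm among the scarce sequences and 3 of 15 among abundant predicted sequences listed more than once. T, the base that Argonaute proteins of mammals favour at the 5′ end as U, opened 11 of the 24 (45.8%), against 47.8% of the scarce sequences and 51.6% of those of known name. G opened 6 of the 24 (25.0%), against 7.46% and 6.85%, and the nested m0032-5p and m0044-5p are 2 of these 6. These shares are descriptions and were not tested. None of the 24 numbers had a second arm in the table, and none of the 1230 predicted numbers had one, so 5p and 3p levels of 1 hairpin could not be compared.

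**Figure D1:**
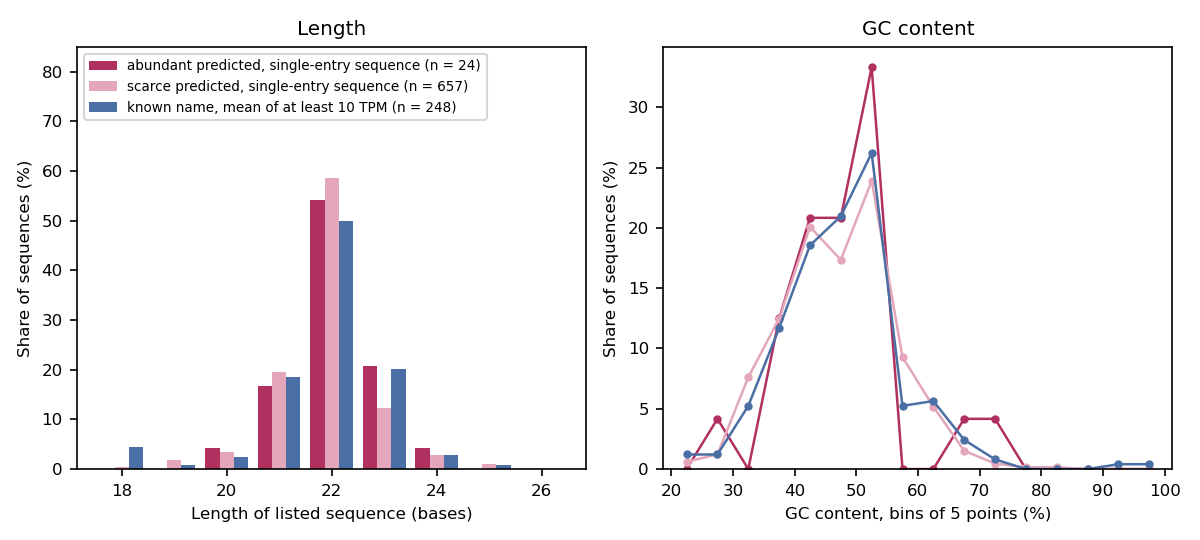
Length (left, bars, bases) and GC content (right, points joined by lines, bins of 5 percentage points) of 3 sets of sequences, each as a share of the set's sequences in percent. The 24 abundant predicted sequences peak at 22 bases, as do the 657 scarce predicted ones and the 248 of known name.

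Library totals ran from 8245698 to 10336991 counts, and 1 read stood for 0.101 to 0.127 TPM. The label of skin was met by its markers: 12 entries of the epidermal families miR-203, miR-205, miR-184 and miR-200 summed to between 79040 and 95579 TPM in YR and between 105640 and 107650 TPM in WR. All the listed families of the other cell types were present too. Those of dermis and mesenchyme (miR-199, miR-214) summed to 305169 to 383726 TPM in YR and 303423 to 328661 TPM in WR. The pigment cell families (miR-204, miR-211) had 65207 to 87205 TPM in YR and 65616 to 83984 TPM in WR. The skeletal muscle families (miR-1, miR-133, miR-206) had 13007 to 24428 TPM in YR and 17320 to 22073 TPM in WR. The groups overlapped for each of these. The liver miRNA miR-122 had 5.33 to 12.9 TPM in YR and 38.8 to 51.8 TPM in WR, and the neuron and glia entries summed to 137 to 261 TPM in YR and 108 to 114 TPM in WR. In bulk tissue, fewer cells of a type and less RNA per cell cannot be told apart, and the part of such differences in the results below was not tested. WR replicate 1 stood apart from the other libraries: miR-127-y, from an imprinted cluster of placental mammals, had 531, 391 and 420 counts in YR and 23313, 602 and 326 counts in WR. Where leaving that library out changes a call or a direction, the value without it is therefore given too.

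The 24 were of modest abundance. Their mean levels over the 6 libraries, which the rule used, ran from 10.0008 to 233 TPM with a median of 20.6 TPM and took ranks 94 to 331 among the 1939 entries. Of the 24, 12 had a mean of at least 20 TPM and 5 a mean of at least 50 TPM. Together they held 0.0847% ± 0.00146 of all counts in YR and 0.0975% ± 0.00312 in WR (SD, n = 3 each). The lowest WR library was above the highest YR library. An exact permutation test was run on this share, but it cannot decide a direction and no conclusion is drawn from it. Of the 24, 5 reached the limit of 10 TPM through WR alone, m0037-3p and m0050-5p among them. A lower share in YR is thus partly built in by the choice of members. A limit of 20 TPM leaves out all 5 and other members too, and keeps 12 of the 24. With it, the difference of YR minus WR was -0.0039 percentage points, against -0.0128 with the limit of 10 TPM. The limit of 20 TPM is set on the same mean level, and m0056-3p reached it through YR alone. The difference with it thus depends on the choice of members too. Across the 24, Pearson's r of log2 mean TPM was 0.003 with length and -0.063 with GC content, given as a description.

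m0004-3p alone held 24.5% of the reads of the 24, and the 5 most abundant held 55.8%. It had 233, 231 and 260 TPM in YR and 255, 217 and 200 TPM in WR, and the groups overlapped in TPM (log2 fold change of YR over WR 0.36, SE 0.154; edgeR quasi-likelihood test, p adjusted by Benjamini-Hochberg over the 834 entries tested = 0.229). m0024-3p, the second, had 87.6, 69.4 and 88.0 TPM in YR and 73.0, 106 and 93.4 TPM in WR, again with overlap (adjusted p = 0.861). m0025-5p had 81.4, 83.0 and 69.4 TPM in YR and 73.4, 67.1 and 58.9 TPM in WR. Its highest WR library lay above its lowest YR library in TPM (adjusted p = 0.117). Replicates were close for most of the 24, with a median coefficient of variation (SD over mean) of 11.2% in YR and 13.4% in WR, and 16 of the 24 were below 20% in both groups.

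**Figure D2:**
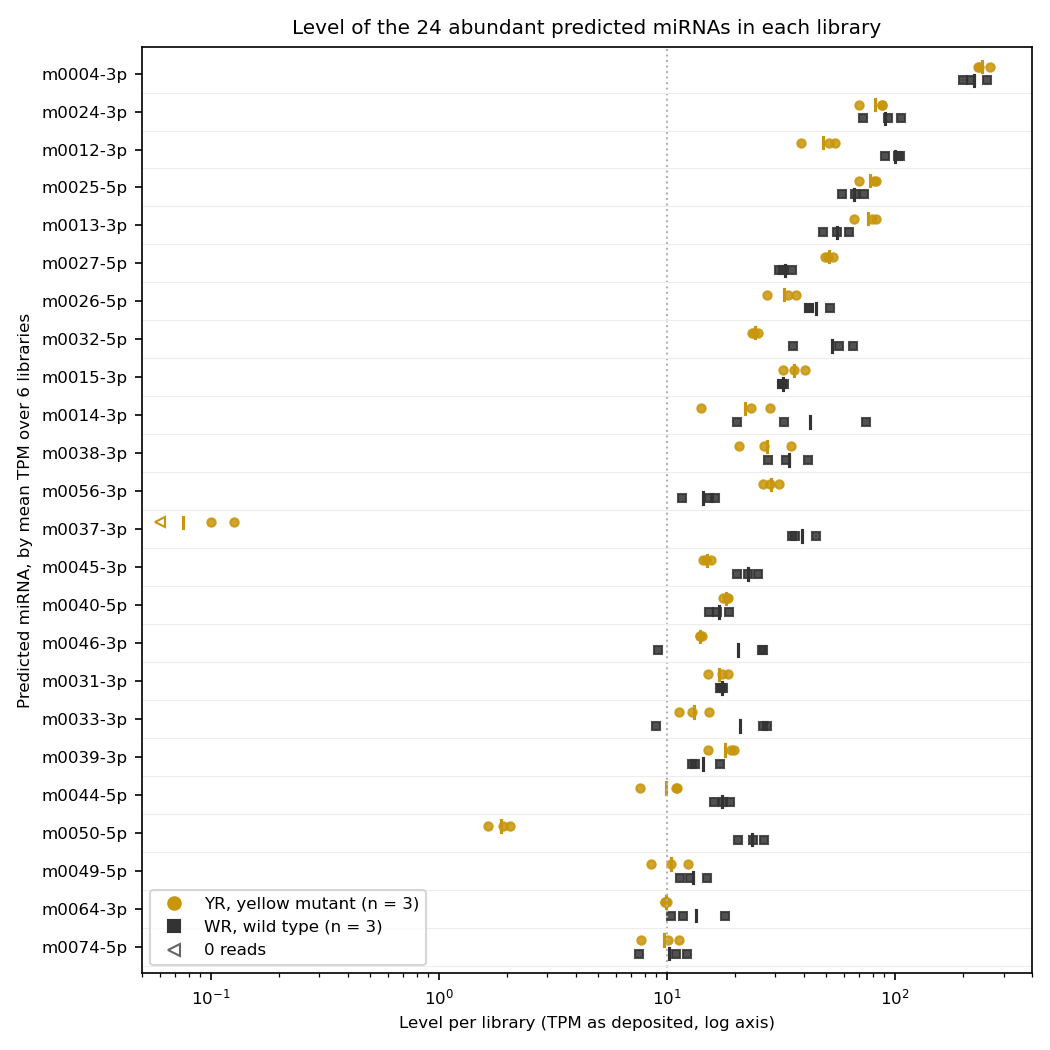
Level of each of the 24 in every library, in TPM as deposited on a log axis, ordered by mean; circles are YR libraries, squares WR libraries, short bars the group means, the open triangle a library with 0 reads, and the dotted line the limit of 10 TPM. m0037-3p and m0050-5p are the entries with YR points far left of their WR points, and most of the others have both groups close together.

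At the limit itself, the 3 lowest of the 24 were m0049-5p (mean 11.7 TPM), m0064-3p (11.7 TPM) and m0074-5p (10.0008 TPM). Just outside stood m0055-5p (9.87 TPM), m0079-3p (9.23 TPM) and m0076-3p (9.18 TPM), which were not analysed further. m0079-3p had 0, 0 and 0 reads in YR and 169, 162 and 144 in WR, so the limit left out an entry read in 1 group only. Of the 24, 19 had a mean of at least 10 TPM in each group. The other 5, m0037-3p, m0044-5p, m0050-5p, m0064-3p and m0074-5p, reached the limit through WR alone, and none through YR alone, so the number of the 24 that were lower in YR is no independent measure of a direction.

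The YR libraries were set against the WR libraries for all 834 entries that averaged 1 TPM or more, and the 24 were read out of that fit, with an adjusted p under 0.05 as the threshold. m0056-3p and m0013-3p were higher in YR, and m0037-3p and m0050-5p were lower. These are 2 of 24 in each direction. Over all 834 entries 2.16% were called higher and 3.12% lower, or 5.28% in either direction. Both members called lower reached the limit of 10 TPM through WR alone, so their number is partly built in by the choice of members. With a limit of 20 TPM, 2 of 12 members were called higher and 0 lower. That limit is set on the same mean level, so these numbers are partly built in too. m0037-3p and m0050-5p, at 39.0 and 23.8 TPM in WR, missed it through their YR levels. m0056-3p, at 28.7 TPM in YR and 14.5 TPM in WR, reached it through YR alone. The other 20 of the 24 did not pass. The median log2 fold change of the 24 was -0.08, beside -0.03 over all 834. Both moved with the scaling: with library totals alone in place of TMM scaling (edgeR's trimmed mean of the entries' ratios between libraries), the median of the 24 was -0.31 and that over all entries was -0.26. With totals alone, 0 of the 24 were higher and 3 lower, and of all entries 0.12% were higher and 3.48% lower (3.6% in either direction). Other tools called 9.73% of the entries they tested (DESeq2) and 4.92%, 4.2% and 5.16% (limma on log2 TPM with pseudocounts of 1, 0.1 and 5).

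m0037-3p had 0, 1 and 1 reads in YR and 371, 309 and 323 reads in WR. Every WR library held at least 309 reads and no YR library more than 1. Per library total, the read rate in YR was 0.187% of that in WR (95% counting interval 0.0226% to 0.677%, which covers counting error only). The test gave an adjusted p of 0.00387 (edgeR, fitted log2 fold change -8.57, SE 0.587, a value that depends on the prior count). The call was kept under all 17 other settings run, with adjusted p at most 0.0480. These settings refit the same libraries and are no independent support. m0037-3p also reached both the limit of 10 TPM and the limit of 1 TPM for testing through WR alone. The sequence of m0037-3p shares its seed with no other entry, and no entry lies within 3 edits of it.

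m0050-5p had 2.05, 1.65 and 1.91 TPM in YR, or 20, 13 and 19 reads, and 20.5, 23.96 and 26.8 TPM in WR. The groups stood far apart and the spread within each was small. It fell to 1.87 ± 0.205 TPM in YR, against 23.8 ± 3.13 TPM in WR (SD, n = 3 each), a log2 fold change of -3.44 (SE 0.281, edgeR adjusted p = 0.00387). Over the other settings the log2 fold change ran from -3.73, without WR replicate 1, to -2.06, with limma on log2(TPM + 5), a scale that understates the change of low entries. The call was kept under 15 of 17 other settings and missed without WR replicate 2 (adjusted p = 0.0518) and without YR replicate 1 (0.0519). These settings too refit the same libraries, and m0050-5p reached the limit of 10 TPM through WR alone. In the authors' deposited table m0037-3p and m0050-5p are also the only ones of the 24 with an adjusted p under 0.05, at 3.95e-23 and 1.46e-07, beside 5.88% of the 834 entries in that table.

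m0056-3p, the longest of the 24, had 31.2, 26.5 and 28.4 TPM in YR and 16.3, 11.7 and 15.4 TPM in WR. All YR libraries lay above all WR libraries. Its log2 fold change was 1.22 (SE 0.216, edgeR adjusted p = 0.0307). The direction was the same under all 17 other settings, with log2 fold changes from 0.80 to 1.35, while the call was kept under 7 of them. The 10 settings that missed it include library totals alone (adjusted p = 0.0593), no filter (0.0606), a filter of 10 TPM (0.0568), 1 entry per distinct sequence (0.0577), and leaving out WR replicate 2 (0.170), WR replicate 3 (0.0868), YR replicate 1 (0.1002), YR replicate 2 (0.0951) or YR replicate 3 (0.126). Without WR replicate 1 it was kept (0.0182). The authors' deposited table gives it an adjusted p of 0.153.

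m0013-3p, which has the seed of miR-146, had 83.0, 79.2 and 66.5 TPM in YR and 62.7, 55.6 and 48.4 TPM in WR. The lowest YR library stood just above the highest WR library. Its log2 fold change was 0.69 (SE 0.136, edgeR adjusted p = 0.0405). The call was kept without WR replicate 1 (adjusted p = 0.0376) and by DESeq2 (0.000929), and missed under the other 15 settings. Those include library totals alone (0.201) and leaving out WR replicate 2 (0.222), WR replicate 3 (0.134), YR replicate 1 (0.124), YR replicate 2 (0.145) or YR replicate 3 (0.126). miR-146-x, with the same seed and far more reads, had 14342, 14452 and 13494 TPM in YR and 14584, 27686 and 28658 TPM in WR (log2 fold change -0.54, adjusted p = 0.344), so WR replicate 1 was close to the YR libraries there.

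**Figure D3:**
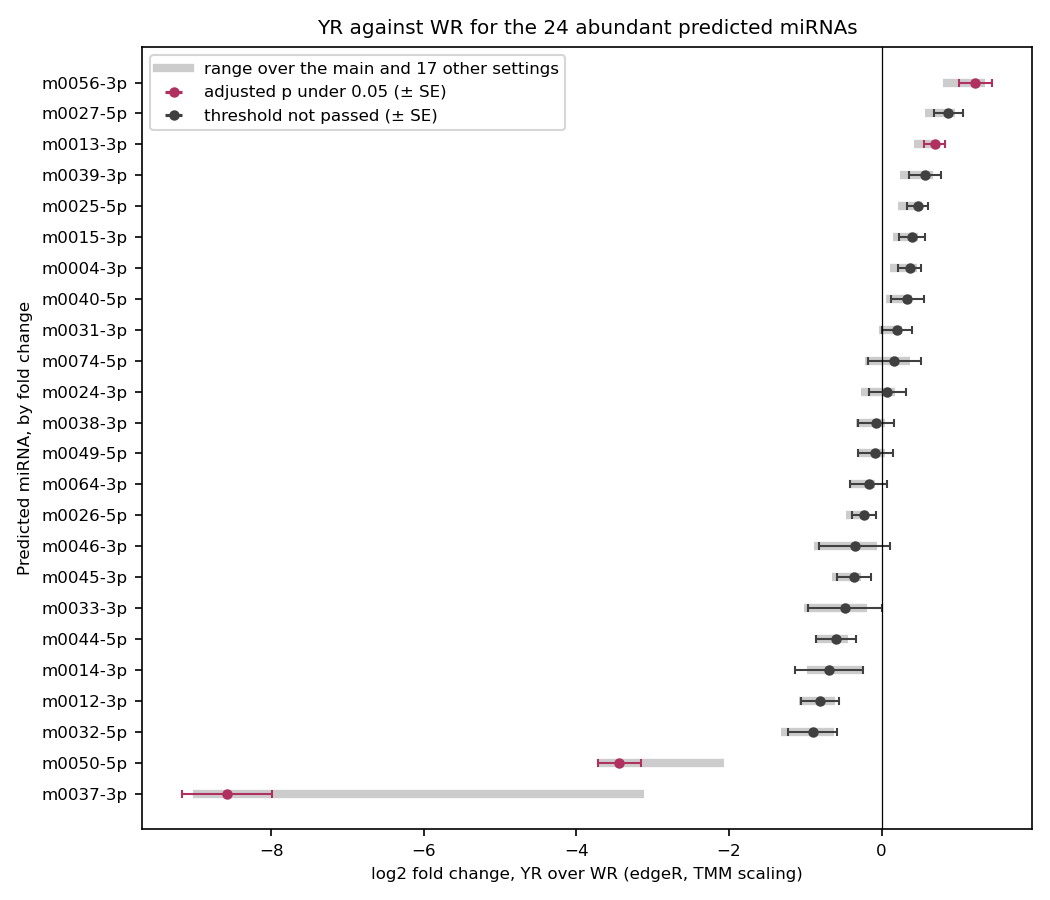
log2 fold change of YR over WR for each of the 24 (points, edgeR with TMM scaling, bars ± SE), ordered by value, with the range over the main and 17 other settings in grey. The coloured points are the 4 with an adjusted p under 0.05; for m0037-3p (-8.57) and m0050-5p (-3.44) the whole grey range is negative, and for m0056-3p and m0013-3p it is positive.

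Next to these stood entries whose groups were separate without passing the test. m0027-5p had 50.8, 49.3 and 53.8 TPM in YR and 31.1, 35.4 and 32.5 TPM in WR, with tight replicates in both groups (log2 fold change 0.87, SE 0.193, edgeR adjusted p = 0.0614). It passed by DESeq2 (0.00655) and without WR replicate 1 (0.0471), and missed under the other 15 settings. m0012-3p had 38.9, 54.8 and 51.3 TPM in YR and 90.2, 106 and 104 TPM in WR, so that every YR library was far below every WR library. Its log2 fold change was -0.80 (SE 0.249, adjusted p = 0.132) with TMM scaling and -1.04 (adjusted p = 0.0382) with library totals alone. It also passed by DESeq2 (0.0359), by limma at each pseudocount (0.0276 to 0.0293) and without WR replicate 1 (0.0124). These make 6 of the 17 other settings, and it missed under the rest. Those include the filter of 10 TPM (edgeR adjusted p = 0.0580), the replicate block (0.109) and leaving out any other single library (0.213 to 0.272). Its near copy miR-457-y was scarce, at 1.53 ± 0.385 TPM in YR and 2.36 ± 1.24 TPM in WR (SD, n = 3 each, edgeR adjusted p = 0.633). The predicted m0198-3p, 2 edits from m0012-3p, was scarce too. It had 2.93 ± 0.913 TPM in YR and 3.66 ± 0.628 TPM in WR (SD, n = 3 each, edgeR adjusted p = 0.846).

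Judged by TPM, the libraries of the groups did not overlap for 11 of the 24 (45.8%), of which 3 were higher and 8 lower in YR. Those lower include m0037-3p, m0044-5p, m0050-5p and m0064-3p, which reached the limit of 10 TPM through WR alone. The number lower is thus partly built in by the choice of members, on either scale. Over all 834 entries tested 28.3% did not overlap, with 8.63% higher and 19.7% lower. After TMM scaling 13 of the 24 did not overlap, of which 8 were higher and 5 lower in YR, beside 28.8% of all entries, with 17.6% higher and 11.2% lower. The direction of the split thus moved with the scaling, for the 24 as for the table. Beside the 4 called, m0027-5p, m0012-3p, m0026-5p and m0044-5p were separate on both scales. m0004-3p, m0025-5p, m0015-3p, m0039-3p and m0040-5p were separate, and higher in YR, after TMM scaling only, and m0032-5p, m0045-3p and m0064-3p were separate, and lower in YR, in TPM only. m0026-5p had 36.9, 33.9 and 27.7 TPM in YR and 52.0, 42.1 and 42.0 TPM in WR (adjusted p = 0.389).

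m0032-5p and m0044-5p, the nested sequences, were compared side by side because their reads may not be independent: no source used here says how reads that match several entries were counted. m0032-5p had 24.2, 23.6 and 25.3 TPM in YR and 35.6, 57.1 and 65.8 TPM in WR. The YR libraries were alike, while WR replicate 1 lay between them and the other WR libraries. m0044-5p had 11.1, 7.62 and 11.0 TPM in YR and 16.1, 17.7 and 18.9 TPM in WR. Neither passed (log2 fold change -0.90, SE 0.322, edgeR adjusted p = 0.190 for m0032-5p; -0.60, SE 0.265, adjusted p = 0.240 for m0044-5p). Without WR replicate 1, m0032-5p passed (log2 fold change -1.32, adjusted p = 0.00469) and m0044-5p did not (-0.87, 0.0630). The longer form had 2.53 ± 0.498 times the reads of the shorter in YR and 2.98 ± 0.670 times in WR (SD, n = 3 each), a difference within the spread between libraries.

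m0033-3p and m0046-3p, the near copies of miR-731-y, followed each other closely. m0033-3p had 15.3, 11.3 and 12.98 TPM in YR and 8.998, 27.4 and 26.6 TPM in WR, and m0046-3p had 13.97, 14.2 and 13.98 TPM in YR and 9.12, 26.5 and 26.2 TPM in WR. In both, WR replicate 1 was the lowest of all 6 libraries and the other WR libraries were the highest. miR-731-y itself had 102, 104 and 89.5 TPM in YR and 123.7, 153 and 159 TPM in WR, so there WR replicate 1 stood above the YR libraries. The reads of m0033-3p over those of miR-731-y were 0.1499, 0.108 and 0.145 in YR and 0.0728, 0.179 and 0.167 in WR. With all libraries neither passed (adjusted p = 0.540 for m0033-3p and 0.634 for m0046-3p). Without WR replicate 1 both fell in YR (log2 fold change -1.02, adjusted p = 0.0159 for m0033-3p; -0.89, adjusted p = 0.0196 for m0046-3p; edgeR). Without that library 6 of the 24 were called lower, beside 10.4% of all 834 entries: these and m0012-3p, m0032-5p, m0037-3p and m0050-5p. Of these, m0037-3p and m0050-5p reached the limit of 10 TPM through WR alone. The 3 called higher without WR replicate 1, m0013-3p, m0027-5p and m0056-3p, stand beside 3.72% of all entries (14.1% in either direction).

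m0004-3p was set beside its near copy miR-205-y. miR-205-y had 166, 171 and 160 TPM in YR and 194, 138 and 112 TPM in WR (log2 fold change 0.42, SE 0.178, edgeR adjusted p = 0.229). In both, WR replicate 1 was the highest WR library, while the order of the YR libraries differed: YR replicate 3 was the highest of them for m0004-3p and the lowest for miR-205-y. m0004-3p had 1.46 ± 0.145 times the reads of miR-205-y in YR and 1.56 ± 0.240 times in WR (SD, n = 3 each), a difference within the spread between libraries, and the form listed as predicted exceeded the named one in each library.

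**Figure D4:**
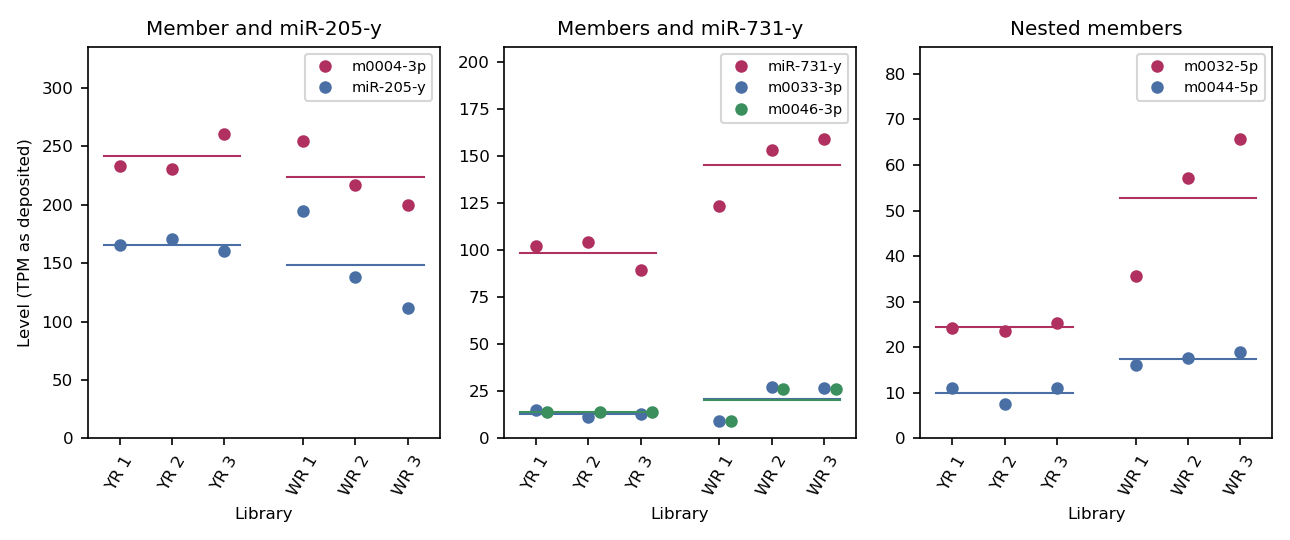
Levels in TPM as deposited (points, 1 per library; lines are group means) of members and their near copies, YR libraries left and WR libraries right. m0033-3p and m0046-3p (set apart sideways for view) have close levels in the WR libraries and are lowest in WR replicate 1. m0004-3p stands above miR-205-y in every library, and m0032-5p above m0044-5p.

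The remaining entries did not pass either. m0014-3p, the shortest and richest in GC, varied widely within groups: it had 28.5, 23.4 and 14.1 TPM in YR and 74.9, 32.7 and 20.2 TPM in WR, where WR replicate 1 alone was over 70 TPM. Its log2 fold change was -0.69 (SE 0.448, edgeR adjusted p = 0.370), and -0.25 (adjusted p = 0.640) without WR replicate 1. m0045-3p, which shares the seed of the scarce miR-3120-y, had 14.4, 14.9 and 15.7 TPM in YR and 20.4, 25.1 and 22.6 TPM in WR, apart in TPM but not after TMM scaling (adjusted p = 0.364). m0064-3p had 9.86, 10.03 and 9.86 TPM in YR and 17.996, 11.8 and 10.4 TPM in WR (adjusted p = 0.649). m0015-3p had 40.5, 36.1 and 32.4 TPM in YR and 31.98, 32.1 and 32.6 TPM in WR, with the lowest YR library level with the WR libraries in TPM (log2 fold change 0.40, adjusted p = 0.229, and 0.18, adjusted p = 0.557, without WR replicate 1). Levels of m0039-3p, m0040-5p, m0031-3p, m0074-5p, m0049-5p and m0038-3p ran from 7.70 to 35.04 TPM in YR and from 7.54 to 41.6 TPM in WR. The log2 fold change was 0.57 for m0039-3p (adjusted p = 0.199) and 0.33 for m0040-5p (0.366), which had 0.057 without WR replicate 1. m0031-3p, m0074-5p, m0049-5p and m0038-3p lay between -0.08 and 0.20 (adjusted p from 0.538 to 0.860), and for these 4 and m0024-3p the sign changed with the setting. Without WR replicate 1 the log2 fold change was -0.017 for m0031-3p, -0.22 for m0074-5p and -0.27 for m0024-3p.

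The make-up of the reads of the 24 by arm, length, first base and GC content overlapped between the groups. The 3p arm held 73.3% ± 0.572 of the reads of the 24 in YR and 72.6% ± 1.91 in WR (SD, n = 3 each), with p = 0.5 by a 2-sided exact permutation test. The mean length of the listed sequences, each weighted by its reads, was 22.06 ± 0.0357 bases in YR and 22.02 ± 0.106 bases in WR (exact p = 0.9). Sequences that start with T held 44.8% ± 2.18 of the reads in YR and 43.6% ± 2.38 in WR (exact p = 0.6), and the mean GC content was 46.8% ± 0.362 in YR and 47.2% ± 1.03 in WR (exact p = 0.8). After Benjamini-Hochberg adjustment over 6 measures, both shares of counts included, these 4 exact tests each gave 0.9, in a design that cannot go below p = 0.1. The choice of members touches these 4 measures too. m0037-3p (3p, 21 bases, first base T) had 371, 309 and 323 reads in WR and 0, 1 and 1 in YR. It reached the limit of 10 TPM through WR alone, as did m0044-5p, m0050-5p, m0064-3p and m0074-5p. The tests can therefore not decide whether the make-up differs, and no conclusion is drawn from them. Without WR replicate 1 the difference of YR minus WR was 1.73 percentage points for the 3p share and 2.52 for the share that starts with T, against 0.68 and 1.22 with all libraries. For mean length and GC content its sign turned, to -0.0203 bases and 0.241 percentage points without WR replicate 1, against 0.0396 bases and -0.348 percentage points with all libraries. Among the reads of all predicted entries the 24 held 19.0% ± 1.23 in YR and 19.5% ± 0.754 in WR (SD, n = 3 each). The choice of members touches this share too, so no conclusion is drawn from its exact test, which is among the 6.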

How the data were processed

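Small RNA libraries of dorsal skin, 3 YR and 3 WR, were compared. Per the labels' protocols, total RNA (Trizol) received 5′ and 3′ adapters and was read on an Illumina HiSeq Xten. Per the file headers, the authors deposited a whole-number count per entry and library, used as it stands, and a TPM score, which the values show to be the count times a library constant. The log2 fold change, p-value and adjusted p of the authors' deposited table come from a test that no source used here names. The aligner, genome build and prediction tool are likewise not given in the sources used here.

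edgeR 4.0.16 (R 4.3.3) was used with TMM scaling and the quasi-likelihood test, without a replicate term, on the 834 entries with a mean of at least 1 TPM, adjusted by Benjamini-Hochberg over all of them, threshold 0.05. DESeq2 1.42.0 and limma 3.58.1 on log2 TPM were alternatives. SE is the log2 fold change over the root of F. The steps were tested on simulated data. Replicates differed by more than sampling noise (chi-square per degree of freedom 65.2 to 527). Intervals cover counting error only.

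Named entries were to be the 10 most abundant, those called, those with separate groups, and the 3 on each side of the limit. Those sharing a seed with a known name or within 1 edit of another entry were included, with their partners. m0031-3p, m0038-3p, m0075-3p and m0198-3p fall outside. m0039-3p and m0040-5p fall outside when groups are judged by TPM, but had separate groups after TMM scaling. All the entries that fall outside were named after their values were seen. Members, lists and tests were chosen with earlier results of these data known.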

Additional observations from a re-analysis of the deposited data

How the results depend on the processing

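m0037-3p kept its call under all 17 alternatives, and 19 of the 24 kept their sign under all of them. The alternatives refit the same libraries, and m0037-3p reached the member limit through WR alone. Percentages in brackets here are the shares of all entries tested that were called in the same direction. The number higher in YR (2 of 24 in the main comparison) was 3 by the DESeq2 test (4.1%). With a member limit of 5 TPM it was 3 of 52 members (2.16%), and with a limit of 20 TPM 2 of 12 (2.16%). It was 1 with DESeq2 size factors (1.92%), with totals without the 5 most abundant entries (1.08%) and with limma on log2(TPM + 1), log2(TPM + 0.1) and log2(TPM + 5) (0.48%, 0.48% and 0.719%). It was 0 with library totals alone (0.12%), without a filter (0.464%), with a filter of 10 TPM (1.21%), with 1 entry per distinct sequence (0.434%) and with the replicate block (0.0%). It was 0 to 3 when single libraries were left out, and leaving out WR replicate 1 gave the 3 (3.72%). The number lower (2 in the main comparison) was 3 with library totals alone (3.48%), by the DESeq2 test (5.63%) and by limma at each pseudocount (3.72% to 4.44%). When single libraries were left out it was 1 to 6 (0.12% to 10.4%). It was 4 of 52 members with a member limit of 5 TPM (3.12%). With a limit of 20 TPM, above which m0037-3p and m0050-5p do not lie, it was 0 of 12 members (3.12%). Their YR levels put them below that limit, so this number is partly built in as well.

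The median log2 fold change of the 24 was -0.31 with library totals alone, -0.21 with totals without the 5 most abundant entries, -0.31, -0.33 and -0.25 with limma at pseudocounts of 1, 0.1 and 5, -0.29 with the filter of 10 TPM, -0.21 with 1 entry per distinct sequence, 0.22 with a member limit of 20 TPM, and -0.24 to -0.038 when single libraries were left out. The cause was not tested. The limit of 20 TPM is set on the same mean level, so the median with it depends on the choice of members too. The number sharing a seed with a known name (5) was 9 with bases 2 to 7 and 3 with known entries of at least 10 TPM. When single libraries were left out, the difference of YR minus WR ran from -0.15 to 1.73 percentage points for the 3p share, from -0.0203 to 0.0816 bases for mean length and from -0.713 to 0.241 percentage points for GC content.

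Signs turned for m0024-3p (0.07 in the main comparison), which was -0.15 with library totals alone, -0.055 with totals without the 5 most abundant, -0.14, -0.15 and -0.14 with limma at pseudocounts of 1, 0.1 and 5, -0.13 with the filter of 10 TPM, -0.064 with 1 entry per sequence and -0.27 to 0.17 when single libraries were left out. For m0031-3p (0.20) the values were -0.032 with library totals alone, -0.037, -0.039 and -0.030 with limma, -0.0077 with the filter of 10 TPM and -0.017 to 0.27. For m0074-5p (0.16) they were -0.072, then -0.058, -0.063 and -0.045, then -0.041, and -0.22 to 0.37 in the same order. When single libraries were left out, m0038-3p ran from -0.30 to 0.040 and m0049-5p from -0.31 to 0.039.

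Replicate numbers are shared between the groups, but no label says that equal numbers share a batch or animal, and the numbers were not taken as pairs. Deviations of same-numbered libraries correlated at 0.26, -0.10 and 0.27 over 834 entries. Replicates 1 and 3 thus correlated best with their own number, while YR replicate 2 correlated best with WR replicate 3 (0.14). YR replicate 1 with WR replicate 3 gave -0.38, and YR replicate 3 with WR replicate 1 gave -0.24. With so few libraries these values cannot decide whether equal numbers share a batch. With the replicate block, 2 of 834 entries passed in place of 44, m0037-3p and m0050-5p (adjusted p = 0.0480 each), while m0056-3p (0.0934) and m0013-3p (0.132) did not. The 44 were 76 of 781 with DESeq2, 16 of 331 with the filter of 10 TPM, 21 of 691 with 1 entry per sequence, and 1 (without WR replicate 2) to 118 (without WR replicate 1) when single libraries were left out. Counting each member once in the make-up of the reads gives no value per library and was not run. With 20, 13 and 19 reads in YR for m0050-5p and 0 to 1 for m0037-3p, depth limits how closely their YR levels are known.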
